A study of Homo sapiens with 6 samples.

Results

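Genes of glycolysis and of the response to low oxygen were examined in clones of H9, a human embryonic stem cell line, that expressed different forms of the histone H2A.X. The list held 46 genes: 25 of glucose uptake, glycolysis and lactate handling, 14 targets of the hypoxia-inducible factors (HIFs) with roles outside energy metabolism, 3 lipid-linked HIF targets and 4 HIF subunits. Members were listed by name as genes of these pathways, and 25 of the 46 had a row with a gene name in the deposited table. These comprised 9 glycolytic genes, 10 non-metabolic HIF targets, the 3 lipid-linked targets and 3 HIF subunits. The other 21 were not analysed here: SLC2A1, SLC2A3, PFKL, PFKM, PFKP, PFKFB3, PFKFB4, ALDOA, ALDOC, ENO1, ENO2, PKM, SLC16A1, SLC16A3, PDK1, PDK3, CA9, P4HA1, P4HA2, BHLHE40 and HIF1A.

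Total RNA from 6 samples was hybridised to human gene arrays, 1 array per sample and 2 per group. The gamma_ON clones carried the vector pHIV-EF1α with H2A.X S139E, in which glutamate replaces the serine that is phosphorylated at DNA breaks. The gamma_OFF clones carried the same vector with H2A.X T136A and S139A, which lacks both hydroxyl groups. CTRL clones carried the vector with eGFP and no histone. All 3 vectors expressed eGFP through an IRES, by their names under an EF1α promoter, and in every group the transduced H9 cells were sorted for GFP and TRA 1-60, plated singly and expanded from colonies on mouse embryonic fibroblasts in conditioned medium with bFGF at 8 ng/ml. No group carried added H2A.X without a substitution, and the labels do not say whether the 2 replicates of a group are separate clones, so the p-values reflect only how far these particular arrays spread, and that spread may be technical. H2AX had no named row, so the transgene was not checked. The series title asks how phosphorylated H2A.X affects the self-renewal and differentiation of pluripotent cells.

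Glycolysis splits glucose to pyruvate in the cytosol, and human pluripotent cells are known for a high rate of it, with much of the pyruvate released as lactate. HIFs are pairs of an oxygen-labile alpha subunit (HIF1A or EPAS1) and a stable partner (ARNT or ARNT2). When oxygen is present, prolyl hydroxylases such as EGLN1 and EGLN3 mark the alpha subunit for destruction. When it is scarce, the pair binds a short core sequence and raises the transcription of glycolytic enzymes, blood vessel growth factors and mitophagy receptors.

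The HIF core, ACGTG or GCGTG, was searched on both strands in the 250 bases before each RefSeq transcription start (GRCh38.p14). Of 35116 promoter entries in the human table, 43.2% held at least 1 core, as did 21 of 33 entries of the measured members. Entries were found for 20 of the 25 measured members. By entry, a core lay in 9 of 18 entries of glycolytic members (50%) and in 8 of 10 of non-metabolic targets (80%). Counted by gene, a core lay in at least 1 entry of 7 of 9 glycolytic members and of 6 of 7 non-metabolic targets, against 47.4% of all genes in the table. The count by gene favours genes with several entries. A match says only that these letters are in the window. Of the members that passed a test below, VEGFA and NDRG1 had no entry, and the windows of the other 4 are shown. That of LDHA is added as a glycolytic gene that did not pass. Each window is on the strand of the gene, with every core in capitals. HK2, INSIG2 and LDHA have several listed starts, and the first in the table is shown.
BNIP3, chr10:131981924-131982173, minus strand: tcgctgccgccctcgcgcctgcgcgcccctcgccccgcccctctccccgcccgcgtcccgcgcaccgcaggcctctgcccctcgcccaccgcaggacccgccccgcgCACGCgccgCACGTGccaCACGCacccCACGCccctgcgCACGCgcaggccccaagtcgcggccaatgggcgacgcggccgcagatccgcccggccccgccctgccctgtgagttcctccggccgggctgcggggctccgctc
INSIG2, chr2:118088221-118088470, plus strand: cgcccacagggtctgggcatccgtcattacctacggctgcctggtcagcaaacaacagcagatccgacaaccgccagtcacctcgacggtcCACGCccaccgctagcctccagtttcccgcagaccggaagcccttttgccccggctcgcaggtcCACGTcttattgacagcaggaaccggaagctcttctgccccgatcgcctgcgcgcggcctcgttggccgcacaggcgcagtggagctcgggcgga
EPAS1, chr2:46297157-46297406, plus strand: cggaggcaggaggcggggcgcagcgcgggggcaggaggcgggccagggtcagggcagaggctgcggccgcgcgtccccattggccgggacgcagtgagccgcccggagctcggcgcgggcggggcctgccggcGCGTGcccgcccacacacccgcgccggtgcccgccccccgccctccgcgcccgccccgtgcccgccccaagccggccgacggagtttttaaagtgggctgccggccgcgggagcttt
HK2, chr2:74833877-74834126, plus strand: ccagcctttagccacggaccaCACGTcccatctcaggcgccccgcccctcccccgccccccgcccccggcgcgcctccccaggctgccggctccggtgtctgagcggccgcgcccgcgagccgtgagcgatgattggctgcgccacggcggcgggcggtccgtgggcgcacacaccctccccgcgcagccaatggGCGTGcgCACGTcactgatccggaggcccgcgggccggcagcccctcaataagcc
LDHA, chr11:18394313-18394562, plus strand: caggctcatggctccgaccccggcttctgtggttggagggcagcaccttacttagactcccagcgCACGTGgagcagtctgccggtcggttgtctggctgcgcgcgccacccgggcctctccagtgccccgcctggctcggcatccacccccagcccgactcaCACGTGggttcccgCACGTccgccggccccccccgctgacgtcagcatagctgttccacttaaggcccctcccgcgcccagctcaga
BNIP3 held 6 matches, LDHA 5, HK2 3, INSIG2 2 and EPAS1 1. CACGTG reads as ACGTG on both strands and counts as 2 of these matches.

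The deposited values are log2 expression levels, so a difference of 1 is a doubling. Levels of different genes were not set against each other, apart from class medians on each array and readings against the median row level. Of 14 pluripotency markers 13 were measured. Over the 6 arrays SOX2 lay between 11.39 and 11.73, POU5F1 between 7.10 and 8.05, and NANOG between 6.26 and 7.29, close above the median row level of 6.17. POU5F1 rose in gamma_ON over CTRL (0.71, adjusted p = 0.0441) and DNMT3B in gamma_OFF over CTRL (0.46, adjusted p = 0.0489), where 12 of the 13 markers were positive. Gamma_OFF replicate 2 stood apart from the other arrays. It had an SD over all 14884 named genes of 1.64, against 1.70 on gamma_OFF replicate 1, 1.81 and 1.76 on the gamma_ON arrays and 1.76 and 1.78 on the CTRL arrays. Of the 25 measured members, 24 had a mean above the median row level, and the part of this narrower range in their values was not tested. Endoderm markers also differed between the groups. The summed log2 level of 10 measured hepatic and yolk sac endoderm markers was 95.3 and 96.3 in gamma_ON, 73.0 and 72.4 in gamma_OFF, and 76.1 and 73.0 in CTRL. Of these 10, 8 rose in gamma_ON over CTRL, while in gamma_OFF against CTRL 2 rose (AFP and AHSG) and 3 fell (APOA2, TTR and FGB). The fibroblast marker TAGLN fell in gamma_ON (-0.62, adjusted p = 0.0304) and in gamma_OFF (-0.55, adjusted p = 0.0235) against CTRL. Of the 5 measured fibroblast markers 3 were positive in gamma_ON (LUM 0.86, DCN 0.43 and FBLN1 0.22, none called) and 1 in gamma_OFF. The endothelial marker PECAM1 rose in gamma_OFF over CTRL (0.71, adjusted p = 0.044), with values from 5.59 to 6.65, around the median row level. Of the 6 measured endothelial markers 4 were positive there and 2 negative, KDR (-0.27) and ESAM (-0.03). The summed level of 5 fibroblast markers was 42.2 and 41.9 in gamma_ON, 40.3 and 39.7 in gamma_OFF, and 41.8 and 41.0 in CTRL, and that of 6 endothelial markers was 39.9 and 40.4 in gamma_ON, 39.0 and 40.1 in gamma_OFF, and 38.7 and 38.7 in CTRL. These markers were named after their values were seen, and their part in the results below was not tested. In bulk RNA, fewer cells of a type and less RNA per cell cannot be told apart.

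Across the 3 comparisons, 6 members passed the test at least once: VEGFA, BNIP3, NDRG1, INSIG2, EPAS1 and HK2. Only HK2 among these is a glycolytic gene. Each of the calls was lost under at least 2 of 14 alternative settings, and those of BNIP3, NDRG1, INSIG2 and HK2 under 8 to 10. VEGFA stood lower with either histone vector. BNIP3, NDRG1, INSIG2 and EPAS1 stood apart between the 2 histone vectors.

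**Figure D1:**
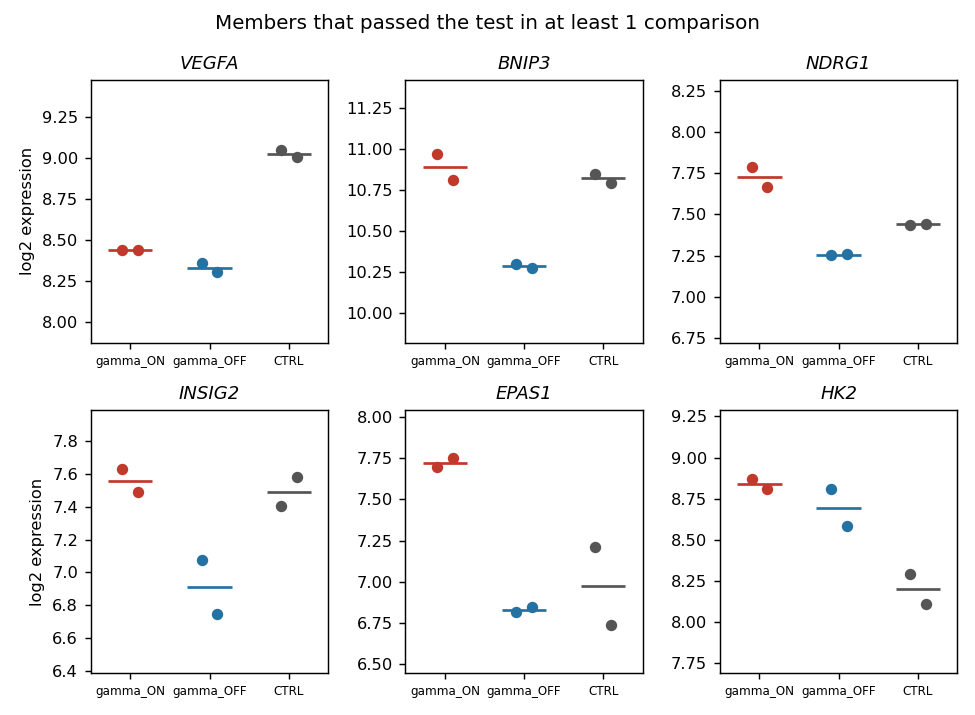
Log2 expression of the 6 members that passed the test in at least 1 comparison, with 1 point per array and a line at the mean of the 2 arrays of gamma_ON, gamma_OFF and CTRL. The VEGFA points of both histone vectors lie at 8.44 or below and the CTRL points at 9.01 and 9.05, and BNIP3 in gamma_OFF lies at 10.30 and 10.27, below all other arrays.

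The comparison of gamma_ON with CTRL asked what the phosphomimetic histone vector changed. Of the 25 measured members 1 fell, 0 rose and 24 did not pass, while 1.55% of all 14884 genes were called at a limma adjusted p under 0.05 (0.739% higher and 0.806% lower). Both gamma_ON arrays lay above both CTRL arrays in 10 members (30% of all genes) and below them in 7 (22.3%), so that the groups did not overlap in 17 of 25 members and in 52.4% of all genes. At an unadjusted p under 0.05 the number of members was 7, or 28%, against 14.8% of all genes. The median log2 fold change of the members was 0.07, against 0.02 over all genes.

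VEGFA, which encodes the vascular endothelial growth factor that directs blood vessel growth and is a classic HIF target, was the gene that fell. It stood at 8.44 and 8.44 in gamma_ON, against 9.05 and 9.01 in CTRL. The groups did not overlap, and VEGFA was 1.503-fold lower in gamma_ON (log2 fold change -0.59, SE 0.11, adjusted p = 0.0389). The size was steady, between -0.57 and -0.61 with any 1 array left out, but the adjusted p was 0.284 and 0.212 with gamma_ON replicate 1 or 2 left out, and 0.244 and 0.275 with CTRL replicate 1 or 2 left out.

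HK2, the hexokinase that commits glucose to the cell by phosphorylating it, stood at 8.87 and 8.81 in gamma_ON, against 8.29 and 8.11 in CTRL. Both gamma_ON arrays lay above both CTRL arrays, with a log2 fold change of 0.64 (SE 0.13), and the adjusted p of 0.0523 missed the threshold. It was 0.0329 with either gamma_OFF array left out, 0.353 and 0.221 with gamma_ON replicate 1 or 2 left out, and 0.153 and 0.381 with CTRL replicate 1 or 2 left out. Of the 9 glycolytic members 0 were called by limma, and 1 had an unadjusted p under 0.05 (11.1%, against 14.8% of all genes). The other hexokinase, HK1, stood at -0.13 (SE 0.15). PGAM1, a phosphoglycerate mutase of lower glycolysis, had a log2 fold change of 0.49 (SE 0.26, adjusted p = 0.429), from 8.93 and 8.66 in gamma_ON against 8.34 and 8.27 in CTRL.

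Lactate dehydrogenase interconverts pyruvate and lactate. LDHA stood at 7.56 and 7.56 in gamma_ON, against 7.47 and 7.501 in CTRL, and its log2 fold change of 0.07 (95% interval -0.18 to 0.33) did not pass. LDHB, the subunit that predominates in oxidative tissue, stood at 9.998 and 9.95 in gamma_ON, against 9.76 and 9.73 in CTRL, a log2 fold change of 0.23 (adjusted p = 0.434). The remaining glycolytic members, GPI, TPI1, GAPDH and PGK1, ran from -0.29 for TPI1 to 0.23 for GAPDH.

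EPAS1, which encodes the HIF alpha subunit HIF-2 alpha, stood at 7.70 and 7.75 in gamma_ON, against 7.21 and 6.74 in CTRL. The gamma_ON arrays lay above both CTRL arrays, which differed widely from each other, and the log2 fold change of 0.75 (SE 0.16, adjusted p = 0.0549) missed the threshold. With 1 array left out its adjusted p ran from 0.037 (without CTRL replicate 1) to 0.367 (without CTRL replicate 2) and the log2 fold change from 0.52 to 0.98. The partner subunits ARNT and ARNT2 stood at -0.14 and -0.01. The mitophagy receptor gene BNIP3 stood at 0.07, its relative BNIP3L at 0.16, and the stress-responsive gene NDRG1 at 0.29 (adjusted p = 0.278). EGLN1, the main oxygen-sensing prolyl hydroxylase, stood at 0.39 (SE 0.13, adjusted p = 0.195) and EGLN3 at 0.08. The histone demethylase gene KDM3A stood at 0.30, the vasoactive peptide gene ADM at -0.28, the ankyrin repeat gene ANKRD37 at -0.12 and the MAX partner gene MXI1 at -0.06 on its brighter row and 0.16 on its other row. Among lipid-linked targets INSIG2, HILPDA and ANGPTL4 stood at 0.07, 0.03 and -0.21.

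**Figure D2:**
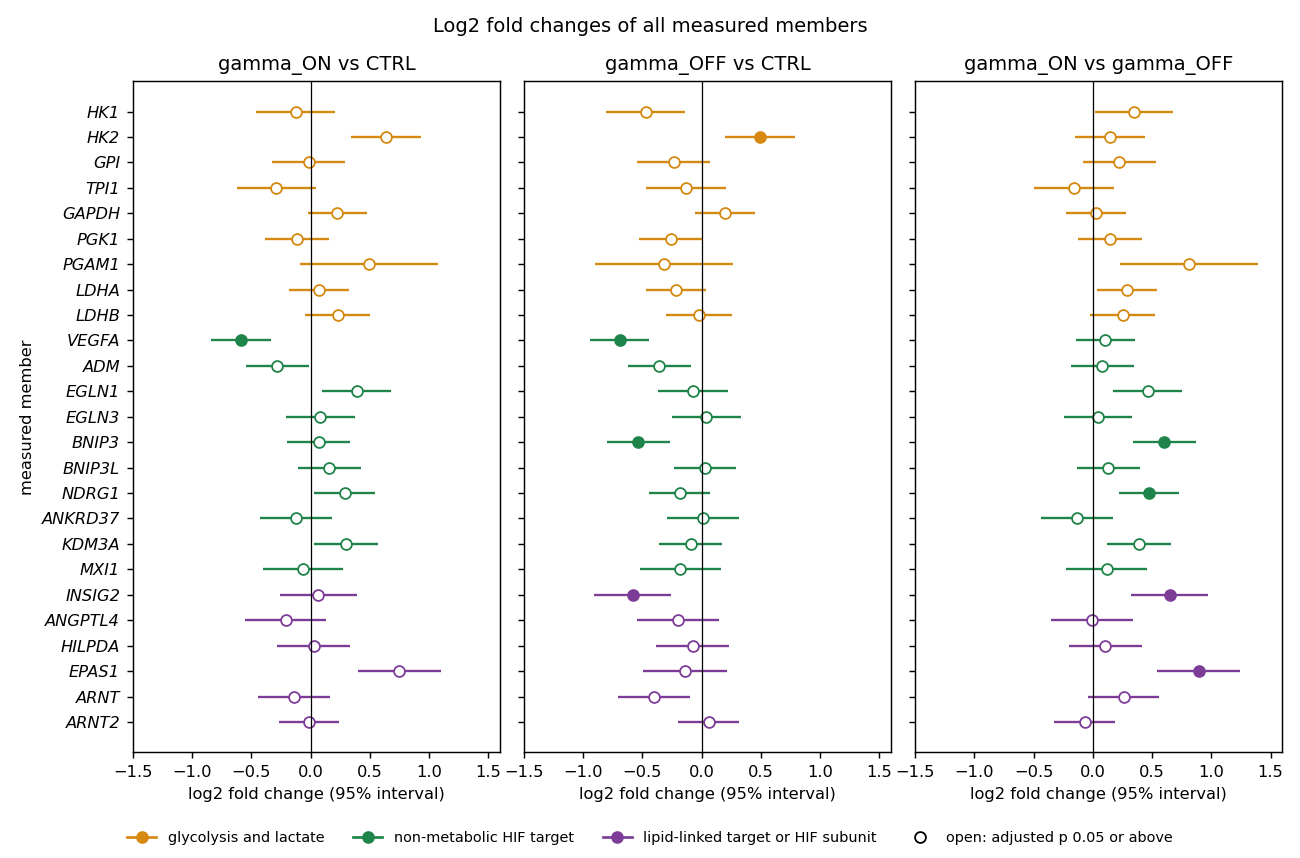
Log2 fold changes of the 25 measured members in the 3 comparisons, with limma's 95% intervals, coloured by class; filled points passed the test and open points did not. VEGFA is filled in both comparisons with CTRL, at -0.59 and -0.69, and 4 members are filled on the right of 0 in gamma_ON vs gamma_OFF.

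The comparison of gamma_OFF with CTRL asked what the non-phosphorylatable histone vector changed. Of the 25 members 3 fell, 1 rose and 21 did not pass, and 8.85% of all genes were called in either direction (2.77% higher and 6.08% lower). The gamma_OFF arrays lay above both CTRL arrays in 2 members (31.1% of all genes) and below them in 10 (30.2%), together 12 of 25 members against 61.3% of all genes. Limma's unadjusted p was under 0.05 in 7 members, or 28%, against 30.4% of all genes. The median of the members was -0.18, against 0.01 over all genes, and 19 of the 25 were negative. With dim genes left out, the median over all 10644 remaining genes was -0.05, and that of the 24 remaining members -0.18. With 1 array left out fewer members were called, except without gamma_OFF replicate 1, where more were. The number called over all genes moved the same way. Such a fit leaves 1 array in a group. The median of the members stayed between -0.20 and -0.14. Both comparisons with CTRL share the same 2 control arrays.

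VEGFA again had the largest fall, with 8.36 and 8.30 in gamma_OFF, against 9.05 and 9.01 in CTRL. It was 1.62-fold lower in gamma_OFF (log2 fold change -0.69, SE 0.11, adjusted p = 0.0111), with no overlap. The adjusted p was 0.0851 without CTRL replicate 1 and 0.0873 without CTRL replicate 2. Between the histone vectors VEGFA differed by 0.11 (gamma_ON minus gamma_OFF, 95% interval -0.15 to 0.36).

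BNIP3 stood at 10.30 and 10.27 in gamma_OFF, against 10.85 and 10.79 in CTRL. The arrays of each group lay within 0.1 of each other and the groups did not overlap, with a 1.45-fold lower level in gamma_OFF (log2 fold change -0.54, SE 0.12, adjusted p = 0.0299). RefSeq lists 46 pseudogenes named after BNIP3, so its row may also read copies and its value is uncertain. The adjusted p was 0.0572 without either gamma_ON array, 0.0785 with gamma_OFF replicate 2 left out, and 0.162 and 0.152 with CTRL replicate 1 or 2 left out. It was also 0.0877 after quantile normalization and 0.0891 with the arrays rescaled to a common SD, where the log2 fold change was -0.34.

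INSIG2 encodes a membrane protein of the endoplasmic reticulum that holds back sterol synthesis. It stood at 7.07 and 6.75 in gamma_OFF, against 7.41 and 7.58 in CTRL, with no overlap and a wider spread in gamma_OFF. It was 1.496-fold lower in gamma_OFF (log2 fold change -0.58, SE 0.14, adjusted p = 0.0422). The adjusted p was 0.0735 without either gamma_ON array, 0.134 with gamma_OFF replicate 2 left out, 0.124 and 0.235 with CTRL replicate 1 or 2 left out, 0.0598 after quantile normalization, 0.0536 with a common SD and 0.0567 with array weights.

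HK2 rose in gamma_OFF, to 8.81 and 8.58, against 8.29 and 8.11 in CTRL. The log2 fold change was 0.49 (SE 0.13) with an adjusted p = 0.0497, and leaving out any 1 of the 6 arrays gave between 0.0604 (without gamma_OFF replicate 2) and 0.281 (without CTRL replicate 2). With array weights it was 0.0735. HK1, the hexokinase of most tissues, did not pass (-0.47, adjusted p = 0.0727). PGAM1 stood at 8.46 and 7.505 in gamma_OFF, against 8.34 and 8.27 in CTRL. Gamma_OFF replicate 2 alone lay below CTRL, and the log2 fold change was -0.32 with both arrays and 0.16 without gamma_OFF replicate 2.

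The other glycolytic members fell short of the threshold in gamma_OFF. LDHA stood at 7.31 and 7.23, against 7.47 and 7.501 in CTRL (-0.21, adjusted p = 0.226), and LDHB at 9.83 and 9.61, against 9.76 and 9.73 in CTRL (-0.02). GPI, PGK1 and TPI1 stood at -0.24, -0.26 and -0.13, and GAPDH at 0.20. RefSeq lists 65 pseudogenes named after GAPDH, 13 after PGAM1, 6 after LDHA and 4 after TPI1, so these rows are uncertain too.

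Among the HIF subunits, EPAS1 stood at 6.81 and 6.85 in gamma_OFF, within the range of 7.21 and 6.74 in CTRL. ARNT, the common partner subunit, stood at 9.56 and 9.27 in gamma_OFF, against 9.80 and 9.84 in CTRL (-0.40, SE 0.13, adjusted p = 0.0877). ADM stood at -0.36 (adjusted p = 0.0835), NDRG1 at -0.18, MXI1 at -0.18 on its brighter row and 0.36 on its other row, KDM3A at -0.09 and EGLN1 at -0.07. EGLN3, BNIP3L and ANKRD37 lay between 0.01 and 0.04. ANGPTL4, a secreted inhibitor of lipoprotein lipase, stood at 7.34 and 7.68 in gamma_OFF, against 7.84 and 7.59 in CTRL, and the groups overlapped (-0.20). HILPDA, a lipid droplet protein gene, stood at -0.08.

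The comparison of gamma_ON with gamma_OFF tested the difference between the 2 histone vectors directly. Of the 25 members 4 rose in gamma_ON relative to gamma_OFF, 0 fell and 21 did not pass, and 5.99% of all genes were called (3.98% higher and 2.02% lower in gamma_ON). The gamma_ON arrays lay above both gamma_OFF arrays in 15 members (35.8% of all genes) and below them in 2 (27.6%), together 17 of 25 members against 63.3% of all genes. Limma's unadjusted p was under 0.05 in 9 members, or 36%, against 33% of all genes. In the same comparison 21 of the 25 had a positive log2 fold change, against 52.9% of all genes. With dim genes left out the count was 21 of 24, against 63.3% of all genes. Their median was 0.14 (0.02 over all genes, and 0.11 over the genes left after dim ones were dropped). With the arrays rescaled to a common SD, a setting added once the data had been seen, 15 of 25 were positive with a median of 0.02, and 1 member, EPAS1, was called. With 1 array left out fewer members were called, except without gamma_OFF replicate 1, where more were. The number called over all genes moved the same way. Such a fit leaves 1 array in a group. The median of the members stayed between 0.14 and 0.26.

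EPAS1 led, with 7.70 and 7.75 in gamma_ON, against 6.81 and 6.85 in gamma_OFF. Replicates lay within 0.1 of each other and the groups were far apart, a 1.86-fold higher level in gamma_ON (log2 fold change 0.89, SE 0.16, adjusted p = 0.0222). The adjusted p was 0.183 and 0.101 with gamma_ON replicate 1 or 2 left out, 0.0898 with gamma_OFF replicate 2 left out and 0.0566 with array weights. The size stayed between 0.87 and 0.92 with any 1 array left out. EPAS1 is also expressed in endoderm and endothelium. Of the endoderm markers 8 of 10 measured rose in gamma_ON relative to gamma_OFF, with AFP at 11.17 and 11.37 in gamma_ON, against 8.08 and 7.76 in gamma_OFF. Of 6 measured endothelial markers 1 rose, the VEGF receptor gene KDR, by 0.71 (adjusted p = 0.0189). Of the 6, 4 were positive and 2 negative, PECAM1 (-0.28) and VWF (-0.21). The summed log2 level of the 6 was 39.9 and 40.4 in gamma_ON, against 39.0 and 40.1 in gamma_OFF. Of 5 measured fibroblast markers 1 rose, LUM, by 1.10 (adjusted p = 0.026). Of the 5, 4 were positive and 1 negative, TAGLN (-0.07). The summed level of the 5 was 42.2 and 41.9 in gamma_ON, against 40.3 and 39.7 in gamma_OFF. AFP, KDR and LUM were singled out after their values were seen. The part of these cell types in the EPAS1 difference was not tested.

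INSIG2 stood at 7.63 and 7.49 in gamma_ON, against 7.07 and 6.75 in gamma_OFF (log2 fold change 0.65, SE 0.14, adjusted p = 0.0429). BNIP3 stood at 10.97 and 10.81 in gamma_ON, against 10.30 and 10.27 in gamma_OFF (0.60, SE 0.12, adjusted p = 0.0309). NDRG1 stood at 7.79 and 7.67 in gamma_ON, against 7.25 and 7.26 in gamma_OFF (0.47, SE 0.11, adjusted p = 0.0475). In each of these genes the 2 groups did not overlap and CTRL lay between them or beside gamma_ON. Each was called without gamma_OFF replicate 1. Without gamma_ON replicate 1, gamma_ON replicate 2, gamma_OFF replicate 2 or either CTRL array, the adjusted p for INSIG2 was 0.29, 0.106, 0.127 and 0.0723, in that order. For BNIP3 the values were 0.262, 0.0871, 0.0928 and 0.0642, and for NDRG1 0.308, 0.111, 0.113 and 0.0921. After quantile normalization they were 0.0552, 0.0808 and 0.0554 for INSIG2, BNIP3 and NDRG1. With a common SD they were 0.0593, 0.0973 and 0.0634, and with array weights 0.0723, 0.0587 and 0.0839. The log2 fold change of BNIP3 was 0.35 with a common SD.

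Of the 9 glycolytic members 0 were called between the histone vectors, 3 had an unadjusted p under 0.05 (33.3%, against 33% of all genes) and 8 were positive. PGAM1 had the widest gap, 8.93 and 8.66 in gamma_ON against 8.46 and 7.505 in gamma_OFF (0.81, SE 0.26, adjusted p = 0.081). It was 1.29 without gamma_OFF replicate 1 (adjusted p = 0.0063) and 0.33 without gamma_OFF replicate 2 (adjusted p = 0.233). HK1 stood at 0.35, LDHA at 0.29, LDHB at 0.25, GPI at 0.22, HK2 and PGK1 at 0.14, GAPDH at 0.03 and TPI1 at -0.16. Without gamma_OFF replicate 2, LDHB stood at 0.14 and HK2 at 0.032. EGLN1 (0.46, adjusted p = 0.0642) and KDM3A (0.39, adjusted p = 0.0737) came closest to the threshold among the other HIF targets. BNIP3L, HILPDA and ADM lay between 0.08 and 0.13, MXI1 at 0.12 on its brighter row and -0.20 on its other row, and EGLN3 at 0.04. ANKRD37 stood at -0.13 and ANGPTL4 at -0.01. ARNT, with 9.75 and 9.60 in gamma_ON against 9.56 and 9.27 in gamma_OFF, stood at 0.26 (adjusted p = 0.202) and ARNT2 at -0.07.

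Glycolytic members and non-metabolic HIF targets were then compared as classes, without a test. In gamma_ON against CTRL both classes had a median log2 fold change of 0.07, with 0 of 9 glycolytic members and 1 of 10 non-metabolic targets called (1.55% of all genes). In gamma_OFF against CTRL the medians were -0.21 for the glycolytic class and -0.14 for the non-metabolic class, with 1 of 9 and 2 of 10 called (8.85% of all genes). In gamma_ON against gamma_OFF they were 0.22 and 0.12, with 0 of 9 and 2 of 10 called (5.99% of all genes). The difference in counts between the classes was not tested. On each array the difference between the class medians of expression level was also taken, with a pooled replicate SD of 0.13. The 3 gaps between classes come from medians of fold changes per gene, so this SD does not measure their spread. The last gap, 0.10, changed sign to -0.09 without gamma_OFF replicate 2. Over these 19 genes the highest log2 fold change against CTRL was that of HK2 with either histone vector, and the lowest that of VEGFA.

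**Figure D3:**
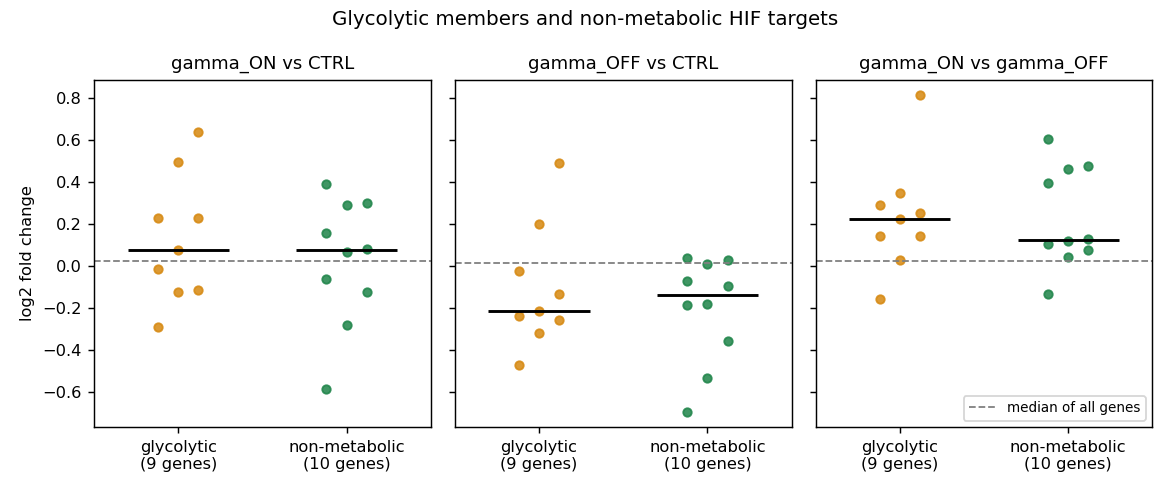
Log2 fold changes of the 9 glycolytic members and the 10 non-metabolic HIF targets in each comparison, with 1 point per gene, a black line at the class median and a dashed line at the median of all genes. The class medians coincide at 0.07 in gamma_ON vs CTRL and lie at 0.22 and 0.12 in gamma_ON vs gamma_OFF.

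Neighbouring parts of the pathway were read from 6 further lists. Of 22 measured genes in the list of other hypoxia-induced genes, 2 fell in gamma_ON against CTRL, and 4 fell and 1 rose in gamma_OFF against CTRL, with medians of 0.03 and -0.25. Of all genes 1.55% and 8.85% were called in these comparisons. Limma's unadjusted p was under 0.05 in 9 and 11 of the 22 (40.9% and 50%), against 14.8% and 30.4% of all genes. EDN1, which encodes the vasoconstrictor endothelin-1, stood at 6.70 and 6.77 in gamma_ON and 6.68 and 6.56 in gamma_OFF, against 7.37 and 7.64 in CTRL. Both histone vectors lay below CTRL without overlap, with log2 fold changes of -0.77 (adjusted p = 0.0259) and -0.88 (adjusted p = 0.00857). In gamma_ON the adjusted p of EDN1 was 0.23 and 0.154 with gamma_ON replicate 1 or 2 left out, and 0.0588 and 0.266 with CTRL replicate 1 or 2 left out. In gamma_OFF it was 0.0805 without CTRL replicate 2. CXCR4, a chemokine receptor gene, stood at 8.25 and 8.26 in gamma_ON, against 8.96 and 8.80 in CTRL (-0.62, adjusted p = 0.0398). Its adjusted p ran from 0.189 to 0.288 without any 1 of the gamma_ON or CTRL arrays.

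WSB1, which encodes a ubiquitin ligase subunit, stood at 10.27 and 9.76 in gamma_OFF, against 11.18 and 11.21 in CTRL (-1.17, SE 0.16, adjusted p = 0.00747, and 0.0512 without CTRL replicate 2). STC1, which encodes the hormone stanniocalcin-1, rose in gamma_OFF, with 10.02 and 10.28 against 9.31 and 9.23 in CTRL. The gain of 0.88 on the log2 scale (SE 0.13, adjusted p = 0.00848, and 0.0706 without CTRL replicate 2) was opposite in sign to the members that fell there. The stress transcription factor gene DDIT3 (-0.75, adjusted p = 0.0302) and STC2 (-0.67, adjusted p = 0.0497), named after their values were seen, were the others that fell. DDIT3 had an adjusted p of 0.0577 without either gamma_ON array, 0.109 without gamma_OFF replicate 2 and 0.186 without CTRL replicate 2. STC2 had 0.083 without either gamma_ON array, 0.183 with gamma_OFF replicate 2 left out, and 0.0851 and 0.282 with CTRL replicate 1 or 2 left out. With array weights DDIT3 had 0.0608 and STC2 0.0745, and STC2 had 0.0971 after quantile normalization and 0.078 with a common SD. DDIT3 read below the median row level of 6.17 on every array. In gamma_ON against CTRL, WSB1, STC2 and DDIT3 also lay below both CTRL arrays, at -0.72, -0.69 and -0.48. None was called there (adjusted p = 0.073, 0.101 and 0.215), and STC1 stood at 0.06.

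Between the histone vectors, 2 of these 22 genes rose in gamma_ON relative to gamma_OFF and 1 fell, with a median of 0.13. Of all genes 5.99% were called there. Limma's unadjusted p was under 0.05 in 8 of the 22 (36.4%), against 33% of all genes. PGM1, which links glycogen to glycolysis, stood at 9.26 and 9.11 in gamma_ON, against 8.58 and 8.40 in gamma_OFF (0.69, adjusted p = 0.0254). LOX, a collagen cross-linking enzyme gene, stood at 7.67 and 7.59 in gamma_ON, against 7.07 and 7.05 in gamma_OFF (0.57, adjusted p = 0.0496). STC1 was the gene that fell, with 9.37 and 9.30 in gamma_ON against 10.02 and 10.28 in gamma_OFF (-0.81, adjusted p = 0.015). Without gamma_ON replicate 1, gamma_ON replicate 2 or gamma_OFF replicate 2 the adjusted p was 0.243, 0.081 and 0.0928 for PGM1, 0.302, 0.123 and 0.14 for LOX, and 0.139, 0.0867 and 0.0573 for STC1. LOX had 0.0661 without either CTRL array, 0.0642 after quantile normalization, 0.0709 with a common SD and 0.0963 with array weights, and PGM1 had 0.0526 after quantile normalization.

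The 2 genes of the glucose-sensing and MYC regulator list that were called, TXNIP and ARRDC4, encode arrestin-like proteins that curb glucose uptake and are induced by glucose. TXNIP stood at 8.92 and 8.88 in gamma_ON and 8.16 and 8.27 in gamma_OFF, against 9.43 and 9.48 in CTRL. It was 2.36-fold lower in gamma_OFF than in CTRL (log2 fold change -1.24, SE 0.11, adjusted p = 0.00237). ARRDC4 stood at 8.26 and 8.42 in gamma_ON and 7.49 and 7.47 in gamma_OFF, against 8.62 and 8.91 in CTRL. It was 2.43-fold lower in gamma_OFF (-1.28, SE 0.13, adjusted p = 0.00355). In gamma_OFF both remained called with any 1 array left out, with adjusted p-values up to 0.0237 and 0.0241. In gamma_ON against CTRL they stood at -0.56 (adjusted p = 0.052) and -0.43 (adjusted p = 0.169). The test between the histone vectors gave 0.68 for TXNIP (adjusted p = 0.0184) and 0.86 for ARRDC4 (adjusted p = 0.0146). The adjusted p without gamma_ON replicate 1 was 0.196 for TXNIP and 0.112 for ARRDC4, and without gamma_ON replicate 2 it was 0.0857 and 0.0887. ARRDC4 had 0.0663 without gamma_OFF replicate 2. Of the 8 measured genes of this list, 0 were called in gamma_ON against CTRL by limma, where 2 had an unadjusted p under 0.05 (25%, against 14.8% of all genes). The 2 of 8 were called in gamma_OFF against CTRL and between the histone vectors, where 8.85% and 5.99% of all genes were called.

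**Figure D4:**
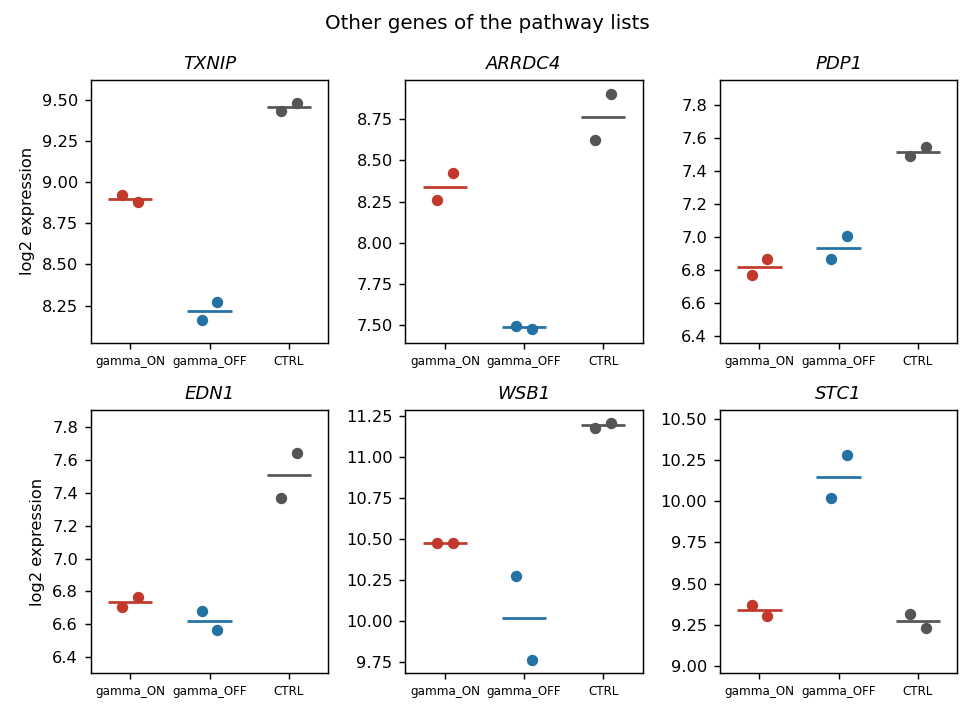
Log2 expression of 6 genes from the other pathway lists, with 1 point per array and a line at the mean of the 2 arrays of gamma_ON, gamma_OFF and CTRL. TXNIP and ARRDC4 lie lowest in gamma_OFF and highest in CTRL, PDP1 and EDN1 lie below CTRL with both histone vectors, and STC1 lies above 10 in gamma_OFF alone.

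In the list of pyruvate dehydrogenase and citric acid cycle genes, 15 were measured and PDP1 was the gene called. It was called with either histone vector against CTRL, where 1.55% (gamma_ON) and 8.85% (gamma_OFF) of all genes were called. PDP1 encodes the phosphatase that activates pyruvate dehydrogenase, opposing the PDK kinases. It stood at 6.77 and 6.87 in gamma_ON and 6.86 and 7.004 in gamma_OFF, against 7.49 and 7.54 in CTRL. The log2 fold changes were -0.70 (adjusted p = 0.0243) and -0.58 (adjusted p = 0.0235). In gamma_ON the adjusted p was 0.235 and 0.134 with gamma_ON replicate 1 or 2 left out, and 0.138 and 0.233 with CTRL replicate 1 or 2 left out. In gamma_OFF it was 0.118 without CTRL replicate 1 and 0.154 without CTRL replicate 2. The list's medians were 0.07 in gamma_ON against CTRL, -0.16 in gamma_OFF against CTRL and 0.17 in gamma_ON against gamma_OFF, where 0 genes were called by limma and 7 had an unadjusted p under 0.05 (46.7%, against 33% of all genes).

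In the 3 remaining lists 0 genes were called by limma in any comparison. The 8 measured other glycolysis isoforms and partners had medians of 0.07 in gamma_ON against CTRL, 0.21 in gamma_OFF against CTRL and -0.09 between the histone vectors, with 0, 2 and 0 genes at an unadjusted p under 0.05. In these comparisons 14.8%, 30.4% and 33% of all genes had such a p. HK3, PGK2, LDHC and LDHAL6B of this list read below the median row level of 6.17 on every array. Over all genes the gamma_OFF against CTRL median was 0.01, and -0.05 with dim genes left out. The 6 measured genes of the oxygen-sensing machinery had medians of 0.03, -0.15 and 0.18, with 0, 1 and 1 genes at an unadjusted p under 0.05. The 7 measured pentose phosphate genes had medians of 0.12, -0.03 and 0.09, with 0, 2 and 1 such genes.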

How the data were processed

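Values were taken from 1 deposited table of log2 expression levels, with 1 column per array. Per the submitters' processing notes, the authors used RMA and Partek 6.6. Neither their settings nor a genome build or annotation is named in the sources used here. Scanner values were not analysed here, and precision is limited by the small number of arrays.

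The platform annotation named 16098 of 53617 rows with 1 gene each, 0 with several and left 37519 unnamed. All 16098 gene identifiers matched RefSeq (GRCh38.p14). The brightest row per gene was kept (14884 genes), which among measured members mattered for MXI1 alone. Groups came from the sample descriptions. A single limma 3.58.1 fit (R 4.3.3) over 6 arrays, with 3 residual and 6.05 prior degrees of freedom, gave 3 two-sided contrasts, adjusted by Benjamini-Hochberg over all genes and called under 0.05. All p-values are limma's, and 95% intervals use its moderated spread. With 2 arrays per group, an exact two-sided permutation test could reach 0.333 at the lowest. The fit was tested on simulated arrays in which each gene had the same spread in every group. Of genes raised in gamma_ON by 1 and by 2 on the log2 scale, 99% and 100% were called against CTRL. There were 17 false calls in that comparison, and 2 in gamma_OFF against CTRL, where nothing was changed. An unequal spread between groups was not simulated.

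Members, lists and tests were chosen with earlier results of these data known. Full values are given for called members, the 2 members of each role class with the largest change, and EPAS1, VEGFA and LDHA. From other lists the rule names up to 3 called genes per comparison, and DDIT3 and STC2 were added to complete a count. For members without a named row, no row could be identified here. Replicate numbers are shared between groups, but deviations of replicate 1 from the group means correlated at 0.088, -0.0962 and -0.0735, so they were not taken as pairs. Sequences are RefSeq's (GRCh38.p14).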

Additional observations from a re-analysis of the deposited data

Results flagged for a closer look

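In 4 members the change from CTRL differed between the 2 histone vectors by limma's direct test of gamma_ON against gamma_OFF. The difference in log2 fold change (gamma_ON minus gamma_OFF) was 0.89 for EPAS1, 0.65 for INSIG2, 0.60 for BNIP3 and 0.47 for NDRG1. Both changes use the same CTRL arrays, and the test itself does not use them except for the shared estimate of spread.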

How the results depend on the processing

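The count of members called for gamma_ON against CTRL was 1, beside 230 of all 14884 genes. It became 3 with trend and robust fitting (381 genes), 3 with array weights (803 genes) and 3 with dim genes left out (377 of 10644 genes). It was 2 in a fit of the 2 groups alone (487 genes) and 3 at an adjusted p under 0.10. With 1 array left out it moved in either direction. For gamma_OFF against CTRL it was 4, and became 2 with array weights, 1 in the fit of the 2 groups alone, 2 after quantile normalization, 2 with a common SD of signal and 7 at 0.10, with a range of 0 to 6 with 1 array left out. Over all genes, 1317 were called in gamma_OFF against CTRL. That number was 767 with array weights and 567 in the fit of the 2 groups alone. It was 933 after quantile normalization and 964 with a common SD, so calls over all genes fell under these settings too. Counts over all genes at 0.10 are not given here. For gamma_ON against gamma_OFF the count of members was 4, beside 892 of all genes. It became 0 with limma's array weights (9 at an unadjusted p under 0.05), where 229 genes were called. It was 1 in the fit of the 2 groups alone (275 genes) and 7 with dim genes left out (1862 of 10644 genes). It was 1 after quantile normalization (471 genes), 1 with a common SD (435 genes) and 7 at 0.10. With 1 array left out it moved in either direction. Where an array is left out, its lone partner is assumed to vary like the other groups. With the replicate number as a block the counts were 1, 4 and 4, beside 210, 1245 and 871 of all genes. HK2 replaced VEGFA in gamma_ON against CTRL, and PGAM1 replaced NDRG1 in gamma_ON against gamma_OFF. The gap between glycolytic and non-metabolic medians in gamma_ON against gamma_OFF, 0.10, became -0.063 after quantile normalization and -0.037 with a common SD, and ran from -0.094 to 0.21 with 1 array left out. Under the alternatives run it ranged from -0.018 to 0.026 in gamma_ON against CTRL and from -0.13 to 0.023 in gamma_OFF against CTRL.

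Signs changed for values that did not pass the test. HK2 in gamma_ON against gamma_OFF became -0.032 after quantile normalization, and VEGFA there -0.053 (-0.0099 with a common SD). LDHB in gamma_OFF against CTRL became 0.13 after quantile normalization and 0.13 with a common SD, and ran from -0.13 to 0.087 with 1 array left out, highest without gamma_OFF replicate 2. PGAM1 there ran from -0.80 to 0.16, also highest without that array, and EPAS1 there from -0.38 to 0.091, highest without CTRL replicate 1. In gamma_ON against CTRL, BNIP3 ran from -0.011 (without gamma_ON replicate 1) to 0.15, and INSIG2 from -0.020 (without CTRL replicate 1) to 0.15, with -0.0040 without gamma_ON replicate 1. ANGPTL4 between the histone vectors ran from -0.18 to 0.17, with 0.06 without gamma_ON replicate 1 and 0.17 without gamma_OFF replicate 2. The cause was not tested. The common SD was chosen after the data were seen. Precision rests on 2 arrays per group.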
